A study of Mus musculus with 6 samples.

Results

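Enteroendocrine transcription factors were examined as a group of 8 genes, chosen by name from the 22274 genes measured: Neurog3, Neurod1, Pax4, Pax6, Isl1, Insm1, Fev and Rfx6. All 8 were found in the table by Ensembl identifier, and 5 of them had enough counts to be tested. RNA was sequenced from epithelial cells isolated from mouse ileum, in 2 groups of 3 libraries. Knockout mice (Olfm4∆Ogt) carried floxed Ogt and Olfm4-CreER, a tamoxifen-activated recombinase under the control of a crypt stem cell gene, and are labelled as an intestinal stem cell-specific knockout of Ogt, the O-GlcNAc transferase. Controls (Olfm4Ctrl) are labelled LoxP, with no Cre driver named, so effects of the driver cannot be told apart from effects of the deletion. Per the labels, offspring of the cross received tamoxifen for 3 days from 2 months of age and were sampled on day 10. The labels do not say separately whether controls received it, and if they did not, drug and deletion cannot be told apart in any comparison here. The labels do not say that each library came from its own animal, so the p-values measure only the spread between these libraries.

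Enteroendocrine cells are scattered hormone-secreting cells of the gut lining. Notch signalling keeps most crypt progenitors from becoming secretory, and progenitors that escape it and switch on Neurog3 enter the enteroendocrine lineage. Neurog3 is a basic helix-loop-helix factor that is present only briefly. It is followed by longer-lasting factors: Neurod1, also a basic helix-loop-helix protein, the zinc-finger protein Insm1, the paired-homeodomain proteins Pax4 and Pax6, the LIM-homeodomain protein Isl1, the ETS protein Fev and the winged-helix protein Rfx6. These factors shape which hormone a cell makes.

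The 250 bases before the transcription start are shown for Neurog3 and Neurod1, the basic helix-loop-helix pair, and for Isl1, the tested member whose groups differed least. They were read from RefSeq (GRCm38.p6), which holds 7 start sites for 6 of the members (not for Insm1 and Pax4). Motifs were searched on both strands, and capitals mark the E-box CANNTG, the core that basic helix-loop-helix proteins bind.
Neurog3, chr10:62132840-62133089, plus strand: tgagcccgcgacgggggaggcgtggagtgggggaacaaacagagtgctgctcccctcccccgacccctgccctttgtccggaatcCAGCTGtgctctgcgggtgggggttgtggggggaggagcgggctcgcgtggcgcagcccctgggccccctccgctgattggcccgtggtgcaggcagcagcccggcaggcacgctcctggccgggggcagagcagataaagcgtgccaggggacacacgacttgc
Neurod1, chr2:79456637-79456886, minus strand: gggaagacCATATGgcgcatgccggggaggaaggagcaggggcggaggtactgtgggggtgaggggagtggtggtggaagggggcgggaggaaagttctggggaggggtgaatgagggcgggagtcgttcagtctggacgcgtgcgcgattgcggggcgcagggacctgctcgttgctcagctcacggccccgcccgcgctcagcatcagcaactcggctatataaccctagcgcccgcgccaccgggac
Isl1, chr13:116309689-116309938, minus strand: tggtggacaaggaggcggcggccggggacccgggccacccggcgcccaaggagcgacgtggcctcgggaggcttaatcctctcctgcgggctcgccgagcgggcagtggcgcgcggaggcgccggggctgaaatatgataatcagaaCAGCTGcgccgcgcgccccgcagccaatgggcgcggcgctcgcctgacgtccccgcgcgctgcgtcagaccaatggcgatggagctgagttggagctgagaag

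Each of these 3 windows held 1 E-box. The first letter lay 165 bases before the start of Neurog3, 242 bases before that of Neurod1 and 103 bases before that of Isl1. Among the windows not shown, 1 of Pax6 held 1 E-box, while the remaining Pax6 window and those of Fev and Rfx6 held 0. The E-box CANNTG was present in 66.2% of the 32851 windows of this length in the RefSeq set, so its presence does not set these genes apart. Neurod1 had the form CATATG, found in 3.46% of all windows. The form CAGATG was in none of the 7 windows, against 14.4% of all. The N-box CACNAG, the core bound by Hes1-type repressors of the Notch pathway, was found in 1 window of Pax6 and in that of Rfx6, against 36.7% of all. CAGATG and CATATG are themselves forms of CANNTG, and all matches are of letters alone. GC content was 71.2% for Neurog3, 67.6% for Neurod1 and 71.2% for Isl1.

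Libraries held 14389429 to 18076486 estimated counts. Ogt, the targeted gene, stood at 140, 127 and 128 CPM (counts scaled to library size, with TMM factors) across controls and at 48.5, 43.0 and 36.0 across knockouts. Every knockout library thus lay below every control, but the mean was still 32.3% of that in controls, although the labels describe the knockout epithelium as negative for Ogt by the day of sampling. Genes of enterocytes and other epithelium were abundant, with Krt8 at 5290 ± 1140 CPM in control (mean ± SD, n = 3, here and below), but genes of muscle (Myh11 at 512 ± 217 CPM) and of enteric neurons (Ret at 12.1 ± 0.572 CPM) were detected as well. The summed level of 9 Paneth cell genes was 246 CPM in control 2 and 2414 and 2077 CPM in the other controls. In bulk RNA, fewer cells of a type and less RNA per cell cannot be told apart.

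All 8 factors were rare transcripts. Together they took 89 to 123 estimated counts per control library and 155 to 176 per knockout library, or, scaled by library total alone, 4.93 to 7.33 and 8.95 to 10.8 CPM. Their summed level was 7.49, 6.18 and 5.24 CPM across controls and 10.7, 9.78 and 8.25 across knockouts. The lowest knockout library thus lay above the highest control. Of single genes tested, 19.6% likewise lay higher in every knockout library than in every control. Neurod1 made up 33.3% to 51.0% of the sum in control and 43.9% to 47.4% in knockout libraries. With Neurod1 taken out, the sums of the groups overlapped.

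No member passed the test between knockout and control. Of the 5 tested, 0 were higher and 0 lower at an adjusted p under 0.05 (edgeR quasi-likelihood test, Benjamini-Hochberg adjusted over all 14005 genes tested), where 9.33% of all genes were higher and 9.37% lower. At an unadjusted p under 0.05, 1 of the 5 passed, against 34.0% of all genes. DESeq2 and limma voom also gave 0 adjusted calls and 1 unadjusted. The median log2 fold change of the 5 was 0.37, beside -0.05 for all genes tested. Groups did not overlap, with knockout higher, for 2 of the 5 (Neurod1 and Insm1), as for 19.6% of all genes.

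**Figure D1:**
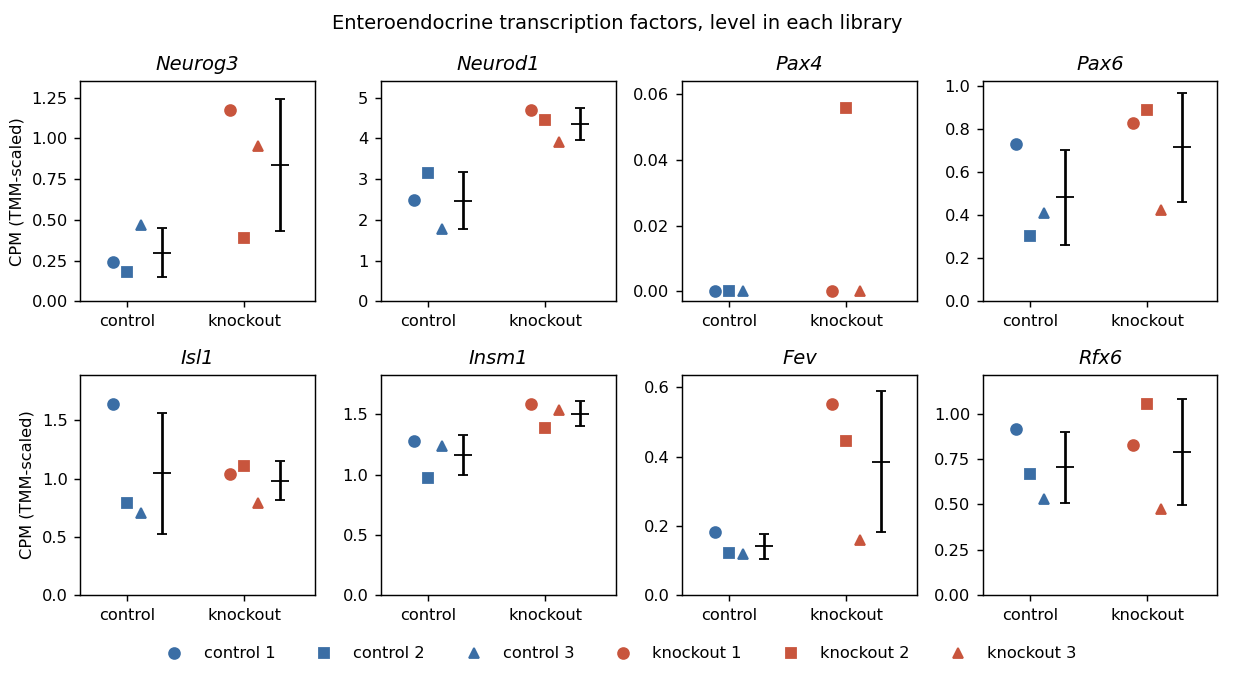
Level of each factor in each library (CPM, scaled with TMM factors; linear axes that differ between panels). Symbols are libraries, and the bars beside them give mean ± SD of 3 libraries (none for Pax4). Neurod1 and Insm1 are the members whose knockout libraries all lie above the controls.

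Neurog3 (ENSMUSG00000044312), the factor that starts the lineage, had 4, 3.1 and 8.08 estimated counts in control libraries and 16.9, 7.21 and 17.84 in knockout libraries. These correspond to 0.244, 0.182 and 0.471 CPM across controls and 1.18, 0.389 and 0.952 across knockouts. Knockouts 1 and 3 were above all controls, while knockout 2 lay below control 3, so the groups overlapped. Neurog3 was too sparse for the count filter. Summed over libraries, 15 control and 42 knockout counts gave a ratio of 2.72 with an exact 95% interval of 1.48 to 5.28, which covers counting error only and not the spread between libraries. An exact two-sided permutation test of the CPM values gave p = 0.20, where 3 against 3 libraries can reach no less than 0.10. With no count filter, edgeR gave a log2 fold change of 1.45 ± 0.62 (± SE, here and below), with an unadjusted p of 0.0418 and an adjusted p of 0.159. Over the alternatives that fitted Neurog3, the adjusted p ranged from 0.0955 to 0.268.

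The estimated counts of Neurog3 were not whole in 5 of 6 libraries. In the GENCODE M21 annotation, 273 of its 1674 exon bases (16.3%) also belong to exons of Fam241b on the opposite strand. Where libraries do not mark strand, reads from such a stretch cannot be assigned to either gene by sequence. Fam241b was more abundant, at 8.45 ± 1.12 CPM across controls and 8.35 ± 0.879 across knockouts, and its log2 fold change was -0.02 ± 0.18 (adjusted p = 0.956). Its part in the Neurog3 counts was not tested.

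Neurod1 (ENSMUSG00000034701) was the most abundant member and had the smallest p of those tested. Control libraries held 41, 52 and 30 counts and knockout libraries 68, 80 and 74. Levels were 2.50, 3.15 and 1.77 CPM across controls and 4.70, 4.44 and 3.91 across knockouts, with no overlap. The log2 fold change was 0.81 ± 0.28, or 1.76-fold with a 95% interval of 1.13 to 2.74. The unadjusted p was 0.0187 and the adjusted p 0.0776, so Neurod1 did not pass the test. Its higher level was seen under every alternative run, at log2 fold changes of 0.52 to 1.06. The adjusted p came under 0.05 with library size alone (0.95 ± 0.28, adjusted p = 0.0460) and for log2(FPKM + 1) (0.52 ± 0.14, adjusted p = 0.0406), and was 0.0501 to 0.181 otherwise. Library size alone moved the all-gene median log2 fold change up by 0.14, and relative to that median Neurod1 stood at 0.86 with either scaling. Without control 2, where Paneth cell genes were low, it stood at 1.06 ± 0.30 (adjusted p = 0.0621). Exons of Cerkl, on the same strand, share 201 of the 2729 exon bases of Neurod1, and Cerkl had 23.2 estimated counts over all libraries.

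**Figure D2:**
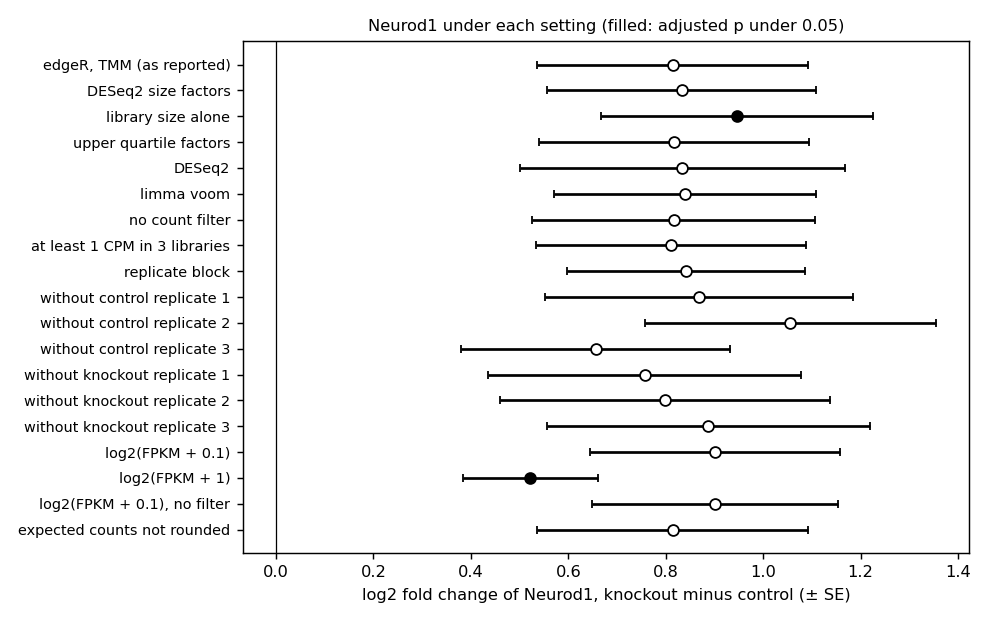
Log2 fold change of Neurod1 (horizontal axis, knockout minus control, ± SE) under the reported fit and each alternative. All values lie above 0, from 0.52 to 1.06, and filled points mark the 2 settings with an adjusted p under 0.05.

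Insm1 (ENSMUSG00000068154), a zinc-finger repressor induced early in the lineage, held 21, 16 and 21 counts in control and 23, 25 and 29 in knockout libraries. Its levels were 1.28, 0.970 and 1.24 CPM across controls and 1.59, 1.39 and 1.53 across knockouts. Every knockout library was above every control, by a narrow margin. The log2 fold change was 0.37 ± 0.31 (adjusted p = 0.434), and the 95% interval of the fold change ran from 0.793 to 2.10.

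Pax6 (ENSMUSG00000027168), which takes part in the maturation of several hormone-producing cell types, stood at 0.731, 0.303 and 0.412 CPM across controls and 0.829, 0.889 and 0.423 across knockouts. Knockout 3 lay within the control range, and the other knockout libraries lay above it. Its log2 fold change of 0.55 ± 0.51 did not pass the test (adjusted p = 0.488), with an interval of 0.650 to 3.30-fold. Pax4 (ENSMUSG00000029706), its relative, had 1 count in knockout 2 and 0 in the other 5 libraries. The 3 counts that a count of 0 allows correspond to 0.159 to 0.207 CPM per library, so Pax4 was at or below the floor throughout and no fold is given.

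Isl1 (ENSMUSG00000042258), a LIM-homeodomain factor of hormone cells and of neurons, stood at 1.64, 0.788 and 0.706 CPM across controls and 1.04, 1.11 and 0.793 across knockouts. Control 1 was the highest of all, and the other controls lay below every knockout. The log2 fold change was -0.09 ± 0.43 (adjusted p = 0.898), with an interval of 0.470 to 1.87-fold. Without control 1 the sign turned, to 0.43 ± 0.43 (adjusted p = 0.506).

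Rfx6 (ENSMUSG00000019900), which acts in the development of gut and islet endocrine cells, stood at 0.913, 0.667 and 0.530 CPM across controls and 0.829, 1.06 and 0.476 across knockouts. Both the highest and the lowest value were in knockouts. The estimated log2 fold change was 0.16 ± 0.45 (adjusted p = 0.833), an interval of 0.546 to 2.28-fold, and it was -0.12 ± 0.53 without knockout 2. For Pax6, Isl1, Insm1 and Rfx6 these intervals include both no difference and changes near 2-fold, so a missed threshold does not show equal levels.

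Fev (ENSMUSG00000055197), the ETS factor also known from serotonin-producing neurons, had 3, 2 and 2 counts in control libraries and 8, 8 and 3 in knockout libraries, under the count filter. In CPM these were 0.183, 0.121 and 0.118 in control and 0.553, 0.444 and 0.159 in knockout libraries. Knockouts 1 and 2 were higher than every control, and knockout 3 fell among them. The 7 control and 19 knockout counts gave a ratio of 2.64, with an exact 95% counting interval of 1.06 to 7.42, and the exact permutation p was 0.20. Without a count filter the adjusted p was 0.274, and over the alternatives that fitted Fev it was 0.139 to 0.274.

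**Figure D3:**
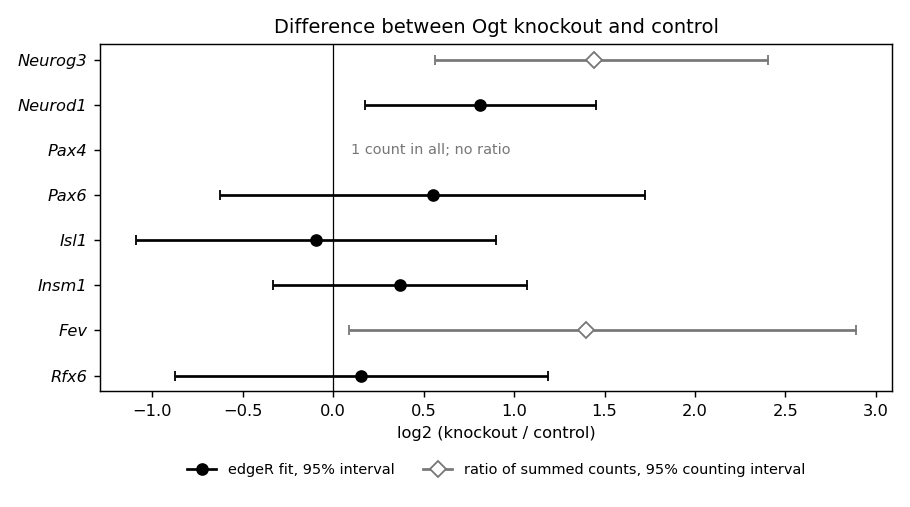
Log2 ratio of knockout to control for each factor. Filled circles give the edgeR estimate with its 95% interval, and open diamonds the ratio of summed counts with a 95% counting interval for members under the count filter. The interval of Neurod1 lies above 0, those of Pax6, Isl1, Insm1 and Rfx6 span 0, and the diamonds of Neurog3 and Fev carry no error between libraries.

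Levels were compared between genes per length, as FPKM. In control libraries Neurod1 stood highest (0.867 ± 0.242 FPKM), followed by Isl1 (0.437 ± 0.177), Insm1 (0.357 ± 0.0513), Rfx6 (0.210 ± 0.0755), Neurog3 (0.197 ± 0.0808), Pax6 (0.187 ± 0.0833) and Fev (0.0900 ± 0.0265), with Pax4 listed at 0. The ranges of neighbours in this order overlapped except between Insm1 and Rfx6 and between Fev and Pax4. In knockout libraries the order was Neurod1 (1.67 ± 0.0929 FPKM), Neurog3 (0.610 ± 0.295), Insm1 (0.510 ± 0.0361), Isl1 (0.440 ± 0.0173), Pax6 (0.280 ± 0.0954), Fev (0.267 ± 0.131) and Rfx6 (0.260 ± 0.0854). Neurog3 overlapped Insm1, Pax6 overlapped Fev and Fev overlapped Rfx6 there, while Neurod1 did not overlap its neighbour. Among all 22274 genes Neurod1 was at the 49.2nd percentile of mean FPKM, and the other members lay between the 22.7th (Pax4) and the 41.2nd (Isl1).

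Each factor was next set against genes for proteins of the hormone granule of enteroendocrine cells. The granule list of 22 genes summed to 220, 233 and 272 CPM across controls and 204, 248 and 229 across knockouts, and the groups overlapped. Relative to this sum, Neurod1 stood at -6.47, -6.21 and -7.27 log2 units in control and -5.44, -5.80 and -5.87 in knockout libraries, without overlap. The difference was 0.94 log2 units with an exact permutation p of 0.10, the smallest that 3 against 3 libraries can give, and 0.28 when adjusted over the 7 members with counts in every library. Neurog3 differed by 1.55 and Fev by 1.39 log2 units (exact permutation p = 0.20 each, adjusted p = 0.28), Pax6 by 0.68 and Insm1 by 0.47 (the same p-values). Rfx6 (0.21) and Isl1 (0.09) differed least, with exact permutation p of 0.60 and 0.90.

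The choice of denominator mattered. Cpe, the largest granule gene, is also made outside endocrine cells, and it stood at 57.1 ± 14.6 CPM across controls and 36.5 ± 9.60 across knockouts. How much of the list's RNA came from enteric neurons or other cells was not tested, so the ratio is not a level per enteroendocrine cell. Against Chga alone, the chromogranin used as a general enteroendocrine marker, the Neurod1 difference was 0.45 and the groups overlapped (exact permutation p = 0.30). Against Chgb alone it was 0.51 (exact permutation p = 0.60). Insm1 went from 0.47 against the list to -0.02 against Chga and 0.04 against Chgb. Neurog3 kept a difference of 1.06 against Chga and 1.12 against Chgb, with an exact permutation p of 0.20 for both.

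**Figure D4:**
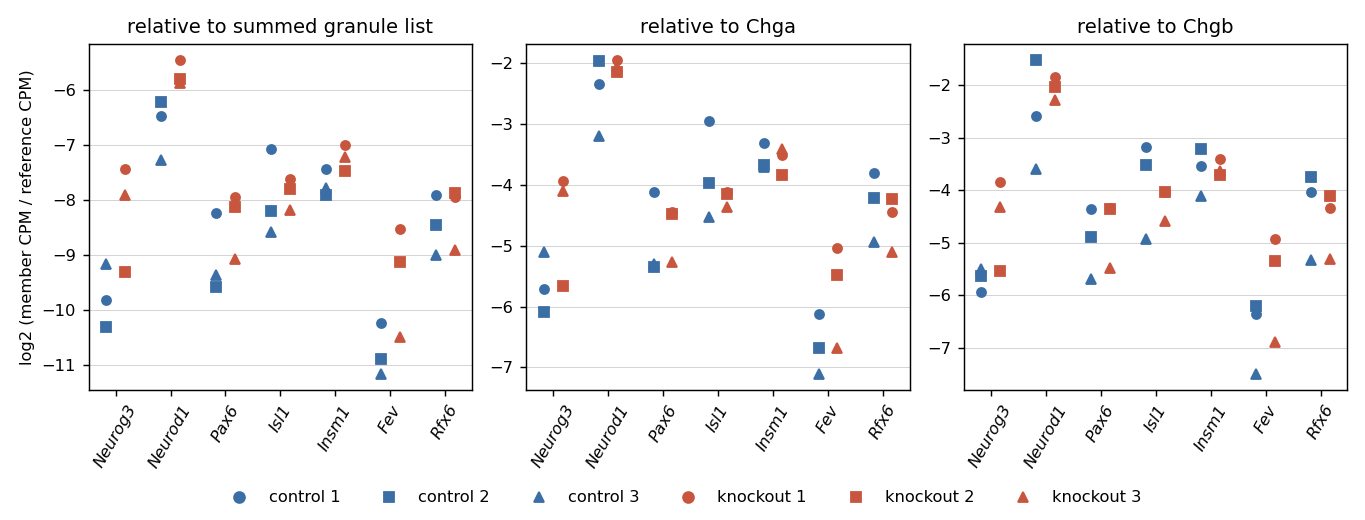
Log2 ratio of each factor to the summed granule list, to Chga and to Chgb in each library (vertical axes differ between panels). Neurod1 separates the groups against the list and overlaps against Chga and Chgb.

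Upstream of the factors, 25 genes of secretory specification and Notch signalling were examined, of which 21 were tested. Of these 2 were higher and 1 lower, where 9.33% of all genes tested were higher and 9.37% lower. The Notch ligand Jag1 rose (0.84 ± 0.17, adjusted p = 0.0153), as did Nrarp, a feedback gene of the pathway (0.53 ± 0.15, adjusted p = 0.0458), and the corepressor gene Cbfa2t2 fell (-0.54 ± 0.13, adjusted p = 0.0252). The median was -0.04, and 0.08 with library size alone, where Cbfa2t2 was not called. Atoh1, which commits cells to the secretory fate, stood at 17.7 ± 9.97 CPM across controls and 11.0 ± 1.25 across knockouts (adjusted p = 0.228), and Hes1, the Notch-induced repressor, at 11.2 ± 6.46 and 10.9 ± 0.639 CPM (adjusted p = 0.952). Id1 was the most abundant (-0.21 ± 0.12, adjusted p = 0.247). Atoh1 and Hes1 were picked for their role after the values had been seen. Cbfa2t2 lost its call without any 1 library (adjusted p up to 0.110), Jag1 when control 3, knockout 2 or knockout 3 was dropped (up to 0.0699) and Nrarp when control 2, control 3, knockout 1 or knockout 3 was dropped (up to 0.154).

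Of 13 genes that accompany Neurog3 in progenitors, 12 were tested, 0 rose and 2 fell: Gadd45a, a growth arrest gene (-0.65 ± 0.15, adjusted p = 0.0211), and the tubulin gene Tubb3 (-0.85 ± 0.25, adjusted p = 0.0497), which is also a neuron gene. The shares over all genes tested were 9.33% higher and 9.37% lower. The median of the list was -0.11. With library size alone it was 0.02, with 1 gene higher and 1 lower. Cdkn1a, the most abundant, stood at 0.33 ± 0.14 (adjusted p = 0.137). Gadd45a lost its call when control 3, knockout 1 or knockout 3 was dropped (highest adjusted p 0.0856), and Tubb3 without any 1 library but control 1 (up to 0.166).

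Other factors of the lineage gave 1 gene higher and 1 lower of 14 tested, out of 24 (median -0.32). Beside this stand 9.33% higher and 9.37% lower over all genes tested. Rcor2, a corepressor, rose from 0.322 ± 0.198 to 1.51 ± 0.635 CPM (2.22 ± 0.54, adjusted p = 0.0264). Rcor2 was not called without any 1 library but control 1 (adjusted p up to 0.108). The number lower was 0 with library size alone and on dropping any 1 library. The median of this list was -0.40 to 0.28 when 1 library was left out, and lay above 0 only without control 1. Nkx2-2 and Myt1, factors that act beside the members and were named after their values were seen, had 10 and 26 counts over the controls and 23 and 52 over the knockout libraries, too few to be tested.

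Downstream, 4 of 17 tested genes of hormones and serotonin synthesis rose and 0 fell (median 0.54). Over all genes tested, 9.33% were higher and 9.37% lower. Ghrl, the ghrelin precursor, went from 0.860 ± 0.640 to 6.49 ± 0.727 CPM and held its call without any 1 library (adjusted p up to 0.0462). Ddc, the decarboxylase of serotonin synthesis, rose from 62.5 ± 8.61 to 87.1 ± 2.45 CPM (0.48 ± 0.12, adjusted p = 0.0281). Vip, a peptide of enteric neurons, rose from 19.9 ± 7.31 to 43.6 ± 11.7 CPM (1.13 ± 0.30, adjusted p = 0.0397). Sct, the secretin gene, was called as well (0.74 ± 0.21, adjusted p = 0.0453). Nts, the most abundant, stood at -0.49 ± 0.23 (adjusted p = 0.186). Other genes of this list differed in either direction without a call, and are named after their values were seen. Higher in knockouts, among others, were Pyy (0.76 ± 0.25, adjusted p = 0.0739), Gcg (0.77 ± 0.27, adjusted p = 0.0940) and Tph1 (0.66 ± 0.33, adjusted p = 0.204). Lower were the tachykinin gene Tac1 (-1.21 ± 0.37, adjusted p = 0.0563) and the galanin gene Gal (-0.85 ± 0.35, adjusted p = 0.125). Insl5, a peptide hormone gene too sparse to be tested, had 41 counts over the controls and 5 over the knockouts, with no overlap between groups. With 1 library left out the number higher was 1 to 5 and the number lower 0 to 2. Ddc lost its call when control 3 or any 1 knockout was dropped (highest adjusted p 0.0982). Vip lost it when control 1, control 2, knockout 2 or knockout 3 was dropped (0.123), and Sct without any 1 library but control 1 (up to 0.141).

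Of the 22 granule protein genes, all tested, 0 rose and 1 fell (median -0.13), against 9.33% and 9.37% of all genes tested. With library size alone 2 were higher and 0 lower (median 0.01). Pcsk1, the prohormone convertase, went from 18.8 ± 1.94 to 13.3 ± 0.931 CPM (-0.50 ± 0.14, adjusted p = 0.0417), a call that ended without any 1 library but control 1 (up to 0.168). Chga stood at 13.8 ± 2.14 CPM across controls and 18.1 ± 1.71 across knockouts (0.39 ± 0.16, adjusted p = 0.123).

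Enteric neurons also use some of these factors, Isl1 among them, so their genes are given beside the members. The summed level of 17 neuron genes was 55.9 to 81.7 CPM across controls and 31.5 to 50.7 across knockouts. Of 15 tested genes 4 were lower and 1 higher, against 9.37% and 9.33% of all genes tested. With library size alone 1 was lower and 1 higher. Each of these 5 calls ended when some 1 library was dropped (highest adjusted p 0.167). None of the defining genes was at 0. Ret, the receptor kinase gene of enteric neuron precursors, fell (-0.88 ± 0.18, adjusted p = 0.0148; up to 0.0659 without control 3 or knockout 3). The summed list thus lay lower in knockouts, where the summed members, Neurod1 included, lay higher, but both rest on which genes are summed. Vip, counted among the hormones here and also made by enteric neurons, was higher in knockouts, and with it added, a choice made after seeing the data, the sums were 71.2, 97.9 and 108 CPM across controls and 61.7, 99.99 and 94.7 across knockouts, which overlap. The part of neuron RNA in the members' values was not tested.

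**Figure D5:**
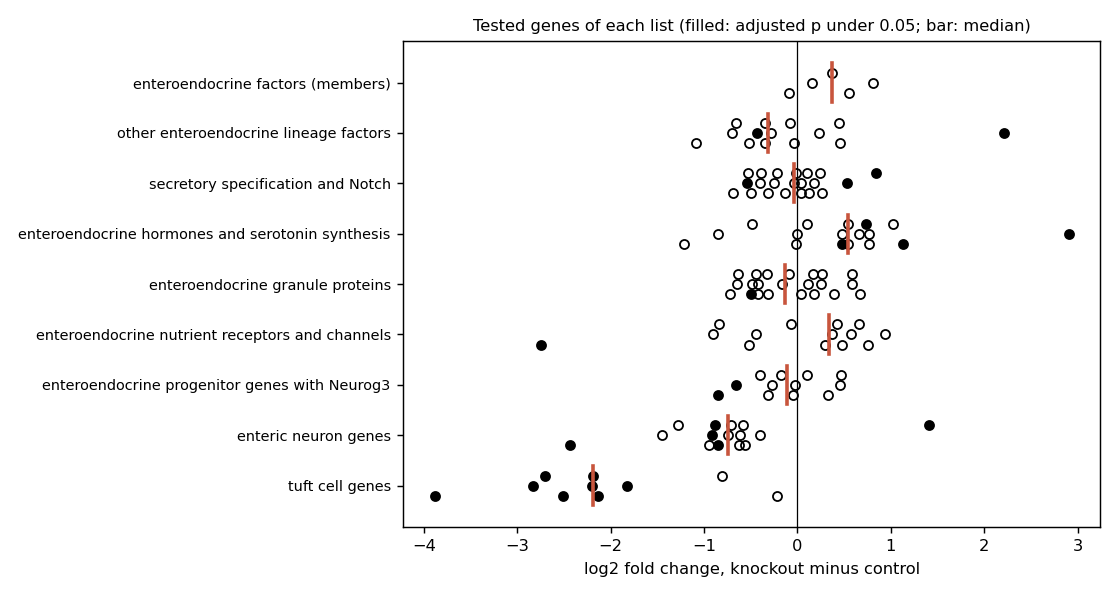
Log2 fold change (knockout minus control) of each tested gene, by list. Filled points passed the test and bars are medians: 0.37 for the 5 tested members, none of them filled, 0.54 for hormones and -0.13 for granule proteins.

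Neighbouring genes on the chromosome were examined next. Of the 16 protein-coding neighbours, 1 on each side of each member, 10 were tested and none passed the test. Over all genes tested, 9.33% were higher and 9.37% lower, so few calls would be found among 10 genes in any case. Next to Neurod1, Itprid2 stood at -0.17 ± 0.12 (adjusted p = 0.355), and next to Neurog3, Tspan15 stood at -0.15 ± 0.12 (adjusted p = 0.429). Next to Insm1, Ralgapa2 stood at -0.17 ± 0.10 (adjusted p = 0.277). The smallest adjusted p was that of Snd1 next to Pax4 (0.27 ± 0.09, adjusted p = 0.0630). Cryba2, beside Fev, was at 0.159 ± 0.149 CPM across controls and 0.154 ± 0.0520 across knockouts.

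Likeness of pattern was measured as the root mean square difference of centred log2 CPM over the 6 libraries, among 13388 to 13391 genes. Nearest to the mean profile of the 5 tested members were Jagn1 (0.05 log2 units), Ube2f (0.05), Tradd (0.06), Slc5a3 (0.07) and Parm1 (0.08), against a median of 0.40 over all genes. Trit1 (0.11) and Hdhd3 (0.12) were nearest to Neurod1, where the median was 0.55. Tff3 (0.07) and Mcf2l (0.09) were nearest to Isl1, Anp32b (0.03) and Gfm1 (0.03) to Insm1, Stk32c (0.12) and Tert (0.15) to Pax6, and Map3k6 (0.11) and Taf1c (0.14) to Rfx6. None of these genes is on the enteroendocrine lists used here.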

How the data were processed

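For each library, the authors deposited reads summarised per gene as estimated counts, which need not be whole, per the file headers. Beside them stand FPKM values, already normalized for gene length and depth when deposited, per the file headers. The submitters' processing notes name GRCm39 and mm39. For aligner, counter and annotation release, the status is: not given in the sources used here. Per the labels' protocols, Trizol was used for RNA and a NEBNext Ultra kit for libraries.

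Counts were rounded, filtered with filterByExpr (minimum count 10, total 15), scaled with TMM factors and tested with the edgeR 4.0.16 quasi-likelihood test (R 4.3.3, threshold 0.05, Benjamini-Hochberg over all 14005 genes tested), after the code was tested on simulated data. The SE comes from the F statistic, and intervals are 95%. Ratios of summed counts carry Clopper-Pearson intervals, corrected for library size. Symbols were matched by identifier to GENCODE M21 (22219 of 22274 rows), which also gave gene order and exon overlap. Its build, GRCm38, differs from that of the table. No 2 libraries agreed within sampling noise (mean chi-square per gene at least 20.3). Alternatives were other library scalings, DESeq2 1.42.0, limma 3.58.1 (voom, and log2 FPKM with pseudocounts of 0.1 and 1), other filters, a replicate block and each library left out. Unrounded counts are an alternative chosen after seeing the data.

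Members, lists and tests were chosen with earlier results of these data known. Named genes are all members, Ogt, per list up to 3 called genes by adjusted p plus the most abundant one, the nearest protein-coding neighbours and the genes of most alike pattern (mean log2 CPM of at least 0, pseudocount 0.1). Sct, Pyy, Gcg, Tph1, Tac1, Gal, Insl5, Chga, Atoh1, Hes1, Fam241b, Cerkl and untested factors were added after values were seen. Some genes that the rule names are not reported here. Of 11 fibroblast and smooth muscle genes tested, 2 were higher and 0 lower, and of 13 leukocyte genes 0 and 0. Glia genes gave 0 higher and 1 lower of 6 tested, tuft cell genes 0 and 8 of 10, and Paneth cell genes 0 and 1 of 9. Genes of enterocytes gave 0 higher and 4 lower of 11 tested, and those of general epithelium 0 and 1 of 11. Among all genes tested, 9.33% were higher and 9.37% lower.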

Additional observations from a re-analysis of the deposited data

How the results depend on the processing

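The count of members lower was 0 under all 18 alternatives, and that of members higher was 0 under 16 of them and 1 (Neurod1) with library size alone and for log2(FPKM + 1). The median log2 fold change of the members fitted was 0.31 to 0.68 on leaving out single libraries, but Neurog3 entered the fit in 4 of these 6 removals; over the same 5 members in each, a choice made after seeing the data, it was 0.29 to 0.49. Over the same removals Neurod1 ranged from 0.66 to 1.06, Insm1 from 0.29 to 0.49, Pax6 from 0.34 to 1.01, Isl1 from -0.28 to 0.43 and Rfx6 from -0.12 to 0.43. The sign of Isl1 turned without control 1 (0.43) or knockout 3 (0.04), with library size alone (0.031), and for log2(FPKM + 0.1), with and without a filter (0.057), and log2(FPKM + 1) (0.010); that of Rfx6 turned without knockout 2 (-0.12). The cause was not tested. In the labels, same-numbered libraries share only a number. Their deviations from the group means correlated at 0.27, 0.25 and 0.08 across genes, each library correlating best with its own number. Whether they share more than the number was not tested. With the replicate block, 3402 genes were called in place of 2619, members higher and lower both stayed at 0, their median was 0.38 and Neurod1 stood at 0.84 (adjusted p = 0.0507); granule genes lower numbered 3 in place of 1 and hormone genes lower 2 in place of 0. Calls over all genes numbered 1009 to 3304 with 1 library left out (fewest without knockout 3, most without control 1). Higher genes made up 49.9% of calls, and 70.4% with library size alone or 71.3% to 71.8% on FPKM, which raised the median of all genes by 0.11 to 0.14. Depth limits Neurog3, Fev and Pax4, which were under the count filter: none exceeded 17.84 estimated counts in a library. Pax6 passed the filter but was nearly as sparse as Neurog3, with at most 16 counts in a library and 60 in all, against 57 for Neurog3.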

Other observations

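Receptors and channels by which enteroendocrine cells sense nutrients numbered 21, of which 14 were tested. Ffar3, a receptor for short-chain fatty acids, fell from 2.16 ± 0.466 to 0.324 ± 0.140 CPM (log2 fold change -2.75 ± 0.42, adjusted p = 0.00566, edgeR), and its call held without any 1 library (adjusted p up to 0.0354). It was the only called gene of the list (0 higher and 1 lower of 14), where 9.33% of all genes tested were higher and 9.37% lower. The median over the 14 was 0.34. Cacna1a, a calcium channel gene and the most abundant member, stood at a log2 fold change of 0.47 ± 0.23 (adjusted p = 0.184). Ffar1, a receptor for long-chain fatty acids, stood at 0.43 ± 0.38 (adjusted p = 0.474) and Ffar2, the other short-chain fatty acid receptor, at 0.30 ± 0.43 (adjusted p = 0.662), both named after their values were seen. Whether Ffar3 differed from Ffar2 was not tested.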
